A study of Homo sapiens with 48 samples.

Results

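The 49 genes described here are a module of mitotic genes, the cyclins, kinases, kinesins, kinetochore subunits and regulators that a cell makes as it approaches and passes through division. They were taken by name from the gene table of the study, with the condition that a gene hold at least 1000 counts over all 48 libraries, and all 49 were found and passed, from 1131 counts for SPC24 to 169742 for BUB3, among 12535 genes that pass the same condition of 19509 with counts. The libraries are RNA-seq of IMR90 ER:RAS cells, human lung fibroblasts that carry HRAS G12V fused to the ligand-binding domain of the oestrogen receptor, so that 4-hydroxytamoxifen (4OHT) switches RAS on and the vehicle DMSO leaves it off. After 6 days of 4OHT or DMSO the cells were transfected with non-targeting siRNAs (siNT1, siNT2), siRNAs against SF3B1 (siSF3B1-13, siSF3B1-16) or siRNAs against RBM39 (siRBM39-06, siRBM39-08), in medium with 0.5% serum, and RNA was taken 2 days later. SF3B1 is a subunit of the U2 snRNP that recognises the branch point of introns, and RBM39 is an RNA-binding protein that acts with U2AF in splicing. Each of the 6 groups (DMSO or 4OHT with siNT, siSF3B1 or siRBM39) holds 8 libraries, 4 for each of 2 siRNAs. All groups carry the same ER:RAS transgene, and the labels number 4 replicates of each siRNA without saying how they were made. The methods of the study describe replicates of its cell experiments in general as independent, but give fewer of them for this experiment than the labels do, so the p-values measure the spread between these libraries.

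Most of these genes are silent in G1 and are transcribed in a wave in G2 and mitosis. In resting cells their promoters are held off by the DREAM complex (the MuvB core with p130 and an E2F), and in dividing cells MuvB passes to MYBL2 and FOXM1, which switch them on. MuvB contacts DNA at a short element named CHR (cell cycle genes homology region), often downstream of CCAAT boxes that bind NF-Y. The products drive entry into mitosis (CDK1 with cyclin B, PLK1, the Aurora kinases), attach chromosomes to the spindle (NDC80 complex, CENP proteins), hold anaphase until attachment is complete (BUB1, BUB1B, BUB3, MAD2L1) and end division through the APC/C and the cytokinesis machinery. These transcripts are low in arrested or senescent cells. In bulk RNA, fewer cells in G2 or mitosis and less RNA per cell cannot be told apart.

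Library totals ran from 31467221 to 52734636 counts. Levels below are CPM (reads scaled to a common library size) after TMM scaling, and comparisons between genes use cRPKM, the length-corrected values of the table. SF3B1 stood at 30.3 to 34.7 CPM in DMSO and 25.8 to 31.3 in 4OHT after siSF3B1, against 305 to 383 and 320 to 344 in the siNT libraries of each treatment. RBM39 stood at 23.8 to 29.9 and 13.8 to 18.2 CPM after siRBM39, against 155 to 179 and 117 to 129. All 10 fibroblast markers exceeded 1 CPM on average in all 6 groups, and their summed level was lower in 4OHT siNT (28740 to 29780 CPM) than in DMSO siNT (73370 to 84810 CPM). Replicate 4 of siRBM39-08 in 4OHT stood apart from the other 7 libraries of its group, and the values of siRBM39 in 4OHT that it moves most are also given without it.

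The promoters of the module share letters that the choice of genes did not use. RefSeq promoters (build GRCh38.p14, 250 bases before to 50 after a start) were found for 42 of 49 members, with 52 promoters in all because some genes have several starts. They were searched on both strands for the CHR forms TTTGAA and TTCGAA and for CCAAT. Matches of different motifs, or of CCAAT and its reverse complement, can share edge letters. A CHR form was present in 35 of 52 member promoters (67.3%), against 16.4% of all 35116 promoters in the table. CCAAT was present in 39 of 52 (75%), against 34.6% of all promoters. Both were present in 29 of 52 (55.8%), against 6.38%, and CCAAT occurred at least 2 times in 44.2%, against 10.8%. A match is a description of letters and not evidence of a bound site.

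Of these promoters, 5 are printed, as the 250 bases before the start on the gene's own strand, 5′ to 3′, with CHR forms and CCAAT, or their reverse complements, in capitals. CCNB2 and PLK1 stand for mitotic cyclins and kinases, KIF20A and TOP2A had the largest falls after RAS activation and after SF3B1 knockdown in DMSO, and ECT2 had the largest rise with RAS. CCNB2 lies at chr15:59104896-59105145 (plus strand), PLK1 at chr16:23678639-23678888 (plus strand), KIF20A at chr5:138178862-138179111 (plus strand), TOP2A at chr17:40417897-40418146 (minus strand) and ECT2, which has 2 promoters in the table of which 1 is shown, at chr3:172750476-172750725 (plus strand).
CCNB2: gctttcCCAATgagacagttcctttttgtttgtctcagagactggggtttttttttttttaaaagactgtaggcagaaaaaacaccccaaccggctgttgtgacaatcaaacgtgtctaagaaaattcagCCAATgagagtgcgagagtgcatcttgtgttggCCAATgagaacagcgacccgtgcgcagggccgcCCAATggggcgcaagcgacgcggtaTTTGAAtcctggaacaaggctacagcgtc
PLK1: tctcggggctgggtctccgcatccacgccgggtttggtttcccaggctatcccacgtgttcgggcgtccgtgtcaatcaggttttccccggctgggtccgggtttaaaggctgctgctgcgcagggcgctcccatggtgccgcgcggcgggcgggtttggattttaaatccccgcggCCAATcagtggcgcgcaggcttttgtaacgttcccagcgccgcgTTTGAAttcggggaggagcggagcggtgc
KIF20A: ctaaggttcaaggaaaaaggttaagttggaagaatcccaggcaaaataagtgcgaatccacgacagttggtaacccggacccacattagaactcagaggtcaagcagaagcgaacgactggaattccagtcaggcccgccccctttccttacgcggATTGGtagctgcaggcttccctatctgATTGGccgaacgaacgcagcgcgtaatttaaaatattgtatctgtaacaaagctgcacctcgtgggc
TOP2A: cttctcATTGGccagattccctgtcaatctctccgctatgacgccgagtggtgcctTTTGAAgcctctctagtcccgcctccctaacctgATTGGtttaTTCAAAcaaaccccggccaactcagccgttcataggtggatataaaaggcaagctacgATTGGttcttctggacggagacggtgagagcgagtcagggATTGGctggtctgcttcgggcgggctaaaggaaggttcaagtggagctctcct
ECT2: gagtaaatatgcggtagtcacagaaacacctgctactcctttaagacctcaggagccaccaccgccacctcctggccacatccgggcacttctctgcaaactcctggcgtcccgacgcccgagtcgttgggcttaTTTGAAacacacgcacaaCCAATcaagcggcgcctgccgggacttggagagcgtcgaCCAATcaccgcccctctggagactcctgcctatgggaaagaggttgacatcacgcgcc
In CCNB2 and PLK1 the CHR form lay 29 bases before the start. The KIF20A window held 2 CCAAT boxes and no CHR form, which says only that those letters are not in this window. The ECT2 window held a CHR form and 2 CCAAT boxes and this gene rose with RAS.

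In control cells without RAS activation (DMSO with siNT) the members spanned a wide range of length-corrected levels. BUB3, a WD40 protein of the spindle checkpoint that is also made outside mitosis, was highest at 27.8 to 29.8 cRPKM (median 29.3). CDC25B, a phosphatase that activates CDK1, followed at 24.4 to 29.5, and its range overlapped that of BUB3. PTTG1 (securin) came next at a median of 11.6 cRPKM, then CCNB1 (cyclin B1) at 9.75 and TOP2A (topoisomerase II alpha, which untangles chromosomes) at 8.33. ESPL1 (separase) was lowest at 0.58, below KIF14 at 0.66 and KIF15 at 0.67, and these 3 ranges overlapped. In RAS-activated control cells BUB3 remained first at a median of 32.2 cRPKM, while ECT2 stood second at 11.5 and AURKA after CDC25B at 7.74. ASPM and MKI67 were the lowest of the module there, at 0.115 and 0.12 cRPKM.

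**Figure D1:**
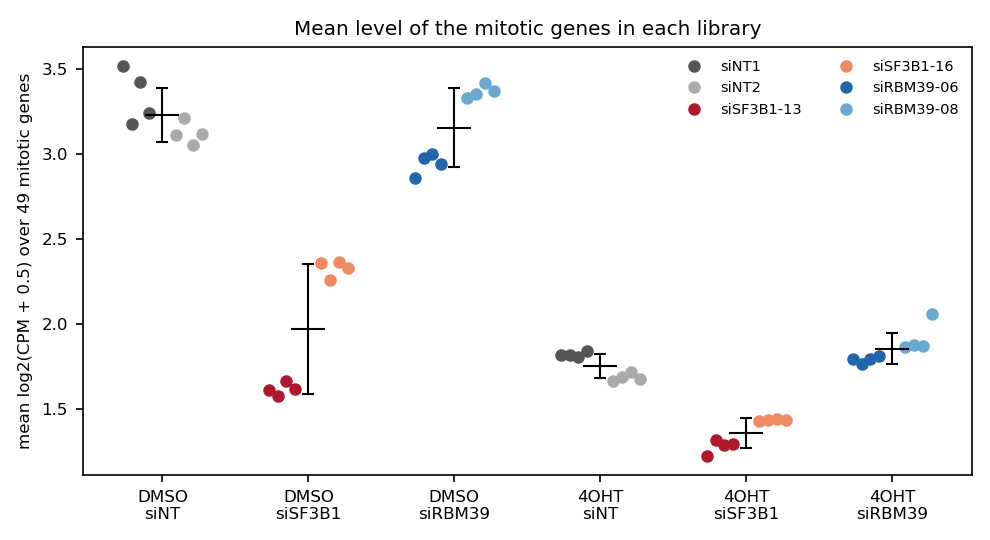
Mean of log2(CPM + 0.5) over the 49 mitotic genes (y axis) in each of 48 libraries, by group (x axis) and siRNA (colour), with the group mean as a line and the SD as whiskers. DMSO siNT libraries lay between 3.05 and 3.51 and 4OHT siNT libraries between 1.66 and 1.84. The siRNAs against SF3B1, and those against RBM39, did not overlap in either treatment and lay farther apart in DMSO.

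The mean of log2(CPM + 0.5) over the 49 genes, plotted for every library, summarises the module. The value was 3.23 ± 0.161 (SD, n = 8) for DMSO siNT and 1.75 ± 0.0734 for 4OHT siNT. After siSF3B1 the mean was 1.97 ± 0.381 in DMSO and 1.36 ± 0.0862 in 4OHT, the lowest of the 6 groups. The siRBM39 groups were at 3.15 ± 0.231 in DMSO and 1.85 ± 0.0925 in 4OHT, near the siNT libraries of the same treatment. In DMSO siSF3B1 the siRNAs formed separate clusters, with 4 libraries of siSF3B1-13 at 1.58 to 1.67 and 4 of siSF3B1-16 at 2.26 to 2.36. In 4OHT they were also apart but closer, at 1.225 to 1.316 and 1.428 to 1.439.

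The first comparison asks what RAS activation alone did to the module (4OHT siNT against DMSO siNT). Of 49 members, 43 fell and 5 rose at an adjusted p under 0.05 in edgeR's quasi-likelihood test, with a median log2 fold change of -2.04. Among all 12535 genes, 38.9% fell and 39.5% rose, with a median of 0.0042. In 42 members every 4OHT library was below every DMSO library, which held for 34% of all genes. ESPL1 was the one member not called (log2 fold change -0.12 ± 0.13, SE, adjusted p = 0.389).

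Both transcription factors of the module fell. FOXM1, the forkhead activator of G2/M genes, went from a lowest, median and highest value of 24.5, 26.9 and 31.4 CPM in DMSO to 3.69, 4.57 and 5.31 in 4OHT (log2 fold change -2.59 ± 0.09, adjusted p = 9.06e-30). MYBL2 (B-Myb), which recruits FOXM1 to MuvB, went from 6.03, 7.29 and 10.2 CPM to 0.785, 1.07 and 1.67. The libraries of the treatments did not overlap for either gene.

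All 6 genes of the cyclin, CDK1 and CDC25 group fell, but not to the same depth. CCNB2 (cyclin B2) dropped from 8.13, 9.55 and 10.7 CPM to 1.17, 1.66 and 2.12 (-2.49 ± 0.18). CCNA2 (cyclin A2, active from S phase to early mitosis) dropped from 9.84, 12.4 and 15.3 CPM to 2.82, 3.02 and 3.42 (-2.01 ± 0.12). CDK1, the mitotic kinase itself, went from 3.73, 5.69 and 7.06 CPM to 0.733, 1.74 and 2.54 (-1.68 ± 0.19). CCNB1 had the mildest fall of the group, with 18.3, 19.8 and 23.5 CPM in DMSO and 10.8, 11.5 and 12.8 in 4OHT (-0.80 ± 0.13, adjusted p = 2.15e-07). CDC25B stayed abundant at 36.5 to 44.2 CPM after falling from 84.8 to 101 (-1.18 ± 0.08).

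Among the mitotic kinases, PLK1, which acts from centrosome maturation to cytokinesis, fell from 10.3, 11.1 and 13.98 CPM to 1.90, 2.38 and 3.15 (-2.25 ± 0.15). NEK2 and TTK (MPS1) fell by 3.20 and 2.23 on the log2 scale. AURKA (Aurora A, which builds spindle poles) went the other way, from 11.7, 12.6 and 15.1 CPM to 17.8, 19.1 and 20.2 (0.56 ± 0.10, adjusted p = 2.32e-06), and no 4OHT library was as low as the highest DMSO library.

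The chromosomal passenger complex split along its subunits. Its kinase AURKB fell from 2.57, 2.99 and 3.63 CPM to 0.492, 0.628 and 0.718 (-2.27 ± 0.17), and BIRC5 (survivin) fell from 10.9, 12.4 and 15.8 to 1.31, 1.90 and 2.31 (-2.78 ± 0.29). INCENP, the scaffold of the complex, rose from 11.4, 12.2 and 13.5 CPM to 13.8, 15.8 and 16.2 (0.31 ± 0.06, adjusted p = 1.28e-05).

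The spindle checkpoint and APC/C group was also divided. BUB1, a checkpoint kinase at kinetochores, fell from 5.68, 7.14 and 10.3 CPM to 1.09, 1.7 and 2.34 (-2.13 ± 0.21). CDC20, the mitotic activator of the APC/C, fell from 10.3, 11.7 and 14.1 to 2.33, 3.20 and 3.83 (-1.92 ± 0.21), and BUB1B, UBE2C and PTTG1 fell by 1.77, 1.81 and 1.06 on the log2 scale. MAD2L1 (MAD2), the inhibitor of CDC20, rose from 4.59, 5.37 and 7.19 CPM to 6.38, 7.53 and 8.56 (0.45 ± 0.10, adjusted p = 8.99e-05), with overlapping libraries. BUB3 rose from 71.8, 75.3 and 78.3 CPM to 85.7, 87.1 and 89.0, a small change (0.22 ± 0.05, adjusted p = 3.40e-05) without overlap.

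All 7 centromere and kinetochore genes fell, between -2.82 for CENPA (the histone H3 variant of centromeres) and -0.88 for SPC25 on the log2 scale. CENPF, a large kinetochore and nuclear matrix protein, went from 18.1, 19.9 and 30.9 CPM to 4.61, 5.44 and 6.03 (-2.04 ± 0.17). All 9 kinesins fell as well. KIF20A (MKLP2), a motor of the central spindle, had the largest fall of the module, from 16.4, 18.01 and 21.6 CPM to 0.772, 1.06 and 1.78 (-3.98 ± 0.23, adjusted p = 3.00e-21). The mildest falls among kinesins were KIF14 (-0.43 ± 0.17) and KIF20B (-0.48 ± 0.13).

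The 6 spindle proteins fell, from DLGAP5 (HURP, -3.30 ± 0.21) and ASPM (-3.16 ± 0.20) to TPX2, the activator of Aurora A (-1.27 ± 0.13). In cytokinesis, ANLN (anillin) fell (-2.13 ± 0.16) while ECT2, the exchange factor that activates RhoA at the division site, had the largest rise of the module. ECT2 counts went from 22.9, 26.1 and 30.2 CPM to 44.8, 46.8 and 50.04 (0.85 ± 0.10, adjusted p = 2.08e-10). TOP2A fell from 39.9, 45.4 and 58.4 CPM to 8.66, 9.53 and 10.9 (-2.30 ± 0.17). MKI67 (Ki-67), the usual marker of cycling cells, fell from 13.2, 16.2 and 24.6 to 1.07, 1.40 and 2.01 (-3.52 ± 0.22).

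**Figure D2:**
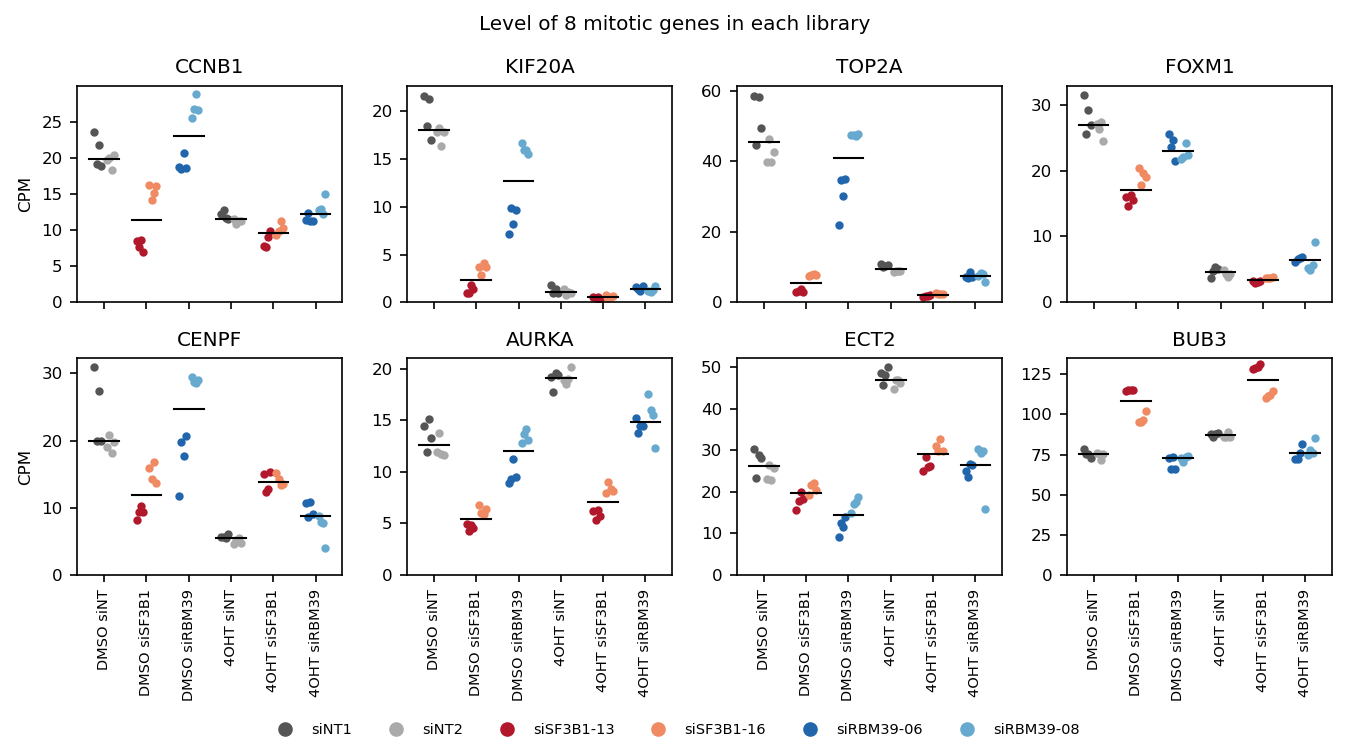
Level in CPM (y axis, from 0) of 8 mitotic genes in each library, by group (x axis) and siRNA (colour), with the group median as a line. AURKA, ECT2 and BUB3 were higher in 4OHT siNT than in DMSO siNT, the other 5 genes were lower, and CENPF in 4OHT was highest after siSF3B1.

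The second comparison is SF3B1 knockdown without RAS (DMSO siSF3B1 against DMSO siNT). It shares the DMSO siNT libraries with the RAS comparison, so the values of each are given side by side only. Of 49 members, 43 fell and 2 rose, with a median log2 fold change of -1.56. Among all genes 37.5% fell and 34.8% rose, with a median of -0.0062. Every siSF3B1 library was below every siNT library in 40 members, against 27.8% of all genes. The members not called were CDC25B, MAD2L1, PTTG1 and KIF18A.

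TOP2A had the largest fall, to 2.80, 5.602 and 8.00 CPM (-3.11 ± 0.18, adjusted p = 1.48e-20). KIF20A fell to 0.948, 2.35 and 4.14 CPM (-2.91 ± 0.21) and KIF15, a plus-end kinesin that helps to keep the spindle bipolar, from a median of 3.06 to 0.382 CPM (-2.70 ± 0.18). Neither gene overlapped its control libraries. AURKB (-2.26 ± 0.17), MKI67 (-2 ± 0.20), MYBL2 (-1.98 ± 0.27), CDC20 (-1.82 ± 0.21), BUB1 (-1.82 ± 0.21) and CCNA2 (-1.81 ± 0.12) fell as well. CDK1, PLK1, AURKA and BIRC5 fell by 1.43, 1.39, 1.25 and 1.16 on the log2 scale. The falls of CENPF (-0.85 ± 0.16), CCNB1 (-0.79 ± 0.13), CCNB2 (-0.67 ± 0.16) and FOXM1 (-0.65 ± 0.08) were smaller.

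AURKA and ECT2, which rose with RAS, fell after siSF3B1 in DMSO. AURKA went to 4.22, 5.45 and 6.79 CPM and ECT2 to 15.6, 19.7 and 21.98 (-0.43 ± 0.10), in both cases below every control library. ESPL1, the cohesin-cutting protease that was not called with RAS, fell from a median of 3.68 to 1.10 CPM (-1.74 ± 0.14). BUB3 rose from a median of 75.3 to 108 CPM (0.50 ± 0.05, adjusted p = 1.19e-13) and INCENP from 12.2 to 14.8 (0.25 ± 0.06). BUB3 did not overlap its controls and INCENP did.

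The siRNAs against SF3B1 differed mainly in the size of the falls. In DMSO every siSF3B1-13 library was below every siSF3B1-16 library in 38 of 49 members, against 20.8% of all genes. With siSF3B1-13 alone 45 members fell, against 41.1% of all genes. With siSF3B1-16 alone 41 fell, against 36.4%. CCNB1, for example, was at 7.01 to 8.59 CPM with siSF3B1-13 and at 14.1 to 16.3 with siSF3B1-16, both below the 18.3 to 23.5 of the controls.

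**Figure D3:**
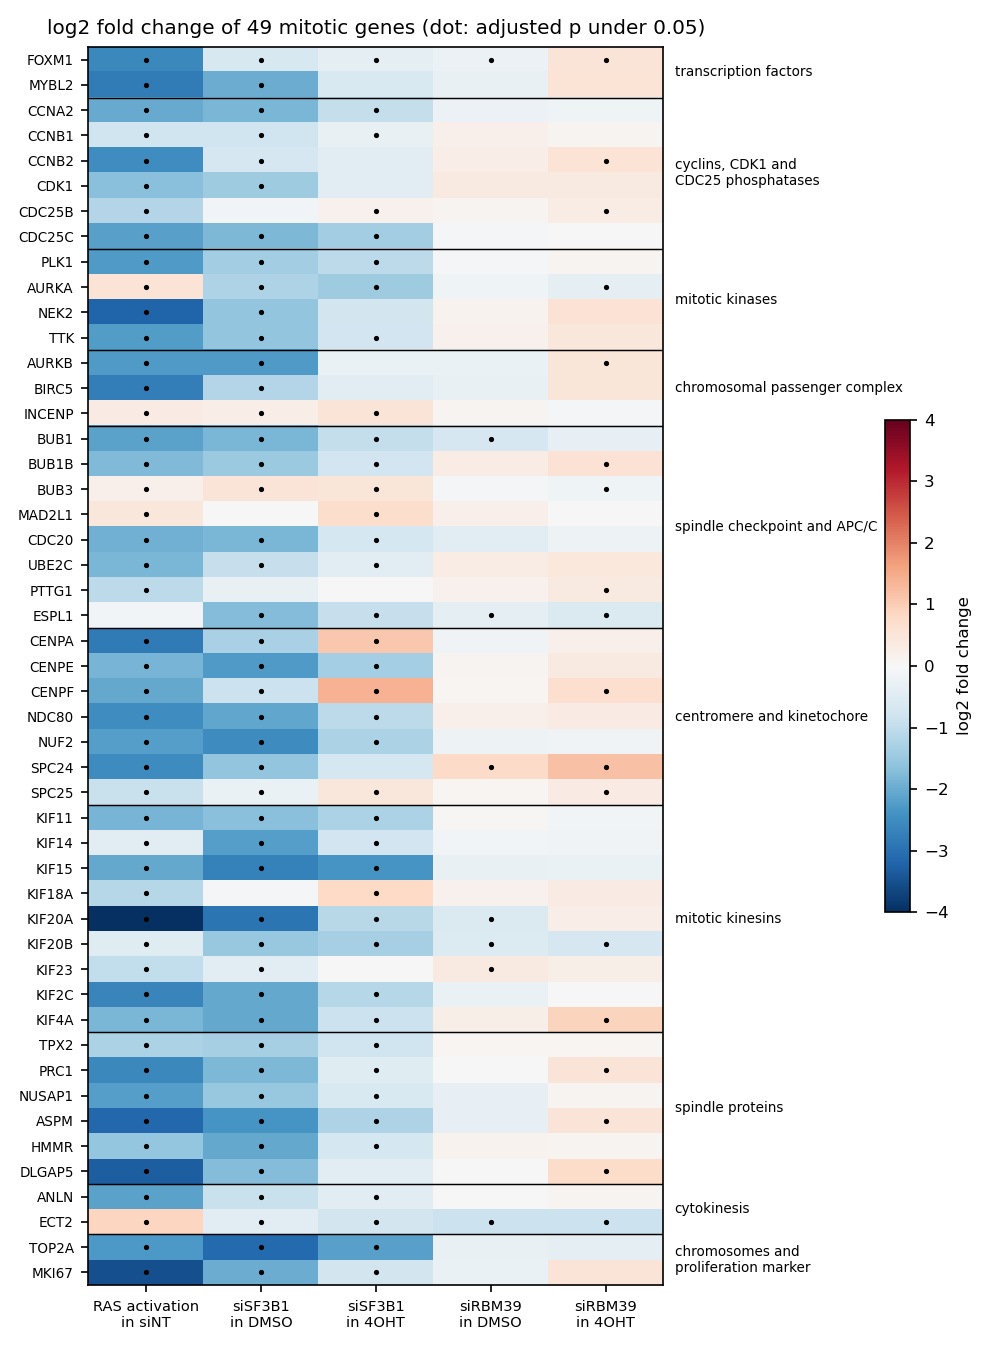
Log2 fold change (colour, from -4 in blue to 4 in red) of the 49 mitotic genes (rows, by role) in 5 comparisons (columns), where a dot marks an adjusted p under 0.05 in edgeR. Columns 1 and 2 are mostly blue with 43 falls each, column 3 mixes 31 falls and 8 rises, and the siRBM39 columns are pale.

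In RAS-activated cells siSF3B1 had a smaller and mixed effect (4OHT siSF3B1 against 4OHT siNT). Of 49 members, 31 fell, 8 rose and 10 were not called, with a median log2 fold change of -0.70. Among all genes 38.3% fell and 36.8% rose, with a median of -0.0023. Every siSF3B1 library was below every siNT library in 18 members, against 31.7% of all genes. KIF15 fell to between 0.0261 and 0.307 CPM (-2.37 ± 0.26, on 42 counts over the 8 siSF3B1 libraries) and TOP2A to 1.58, 2.16 and 2.76 (-2.18 ± 0.19). AURKA fell from a median of 19.1 to 7.10 CPM (-1.42 ± 0.10, adjusted p = 5.21e-17), below its level in untreated control cells, and ECT2 fell from 46.8 to 29.1 (-0.72 ± 0.10), close to its untreated level.

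Some of the genes that RAS had lowered fell further, whereas others rose or were not called. CCNA2 went from a median of 3.02 to 1.60 CPM (-0.96 ± 0.13), PLK1 from 2.38 to 1.10 (-1.06 ± 0.17), KIF20A from 1.06 to 0.541 (-1.11 ± 0.29) and BUB1 from 1.7 to 0.879 (-0.94 ± 0.25). CDC20 (-0.70 ± 0.23), MKI67 (-0.74 ± 0.26), FOXM1 (-0.40 ± 0.09) and CCNB1 (-0.30 ± 0.13) fell as well. MYBL2, CDK1, CCNB2, AURKB and BIRC5 were not called, with log2 fold changes between -0.60 and -0.25. AURKB was at 0.492 to 0.718 CPM in 4OHT siNT and 0.285 to 0.809 in 4OHT siSF3B1, fully overlapping.

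The centromere and kinetochore group divided, with 3 members higher, 3 lower and SPC24 not called. CENPF went from 4.61, 5.44 and 6.03 CPM to 12.3, 13.8 and 15.3 (1.39 ± 0.17, adjusted p = 2.64e-10) with both siRNAs, and no libraries overlapped. CENPA went from a median of 0.261 to 0.569 CPM (1.09 ± 0.22, adjusted p = 2.33e-05), on 84 counts over the 8 siNT libraries. KIF18A, a kinesin that dampens chromosome movement, rose from 2.46 to 3.93 CPM (0.79 ± 0.15), MAD2L1 from 7.53 to 12.7 (0.72 ± 0.10), INCENP from 15.8 to 21.8 (0.51 ± 0.06), BUB3 from 87.1 to 122 (0.47 ± 0.05), SPC25 from 1.41 to 1.92 (0.46 ± 0.11) and CDC25B from 40.3 to 46.4 (0.18 ± 0.08). CENPE, a centromere kinesin, and NUF2 and NDC80 of the NDC80 complex fell by 1.35, 1.26 and 1.04 on the log2 scale.

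The difference between the effects in 4OHT and in DMSO was tested as an interaction. It was positive in 33 members and negative in 0, against 16.9% and 19.8% of all genes, with a median of 0.83 for the module and -0.013 for all genes. Without the test threshold, 46 of 49 members had the higher log2 fold change in 4OHT. With siSF3B1-16 alone the interaction was positive in 19 members and negative in 0, against 14.8% and 16.7% of all genes. With siSF3B1-13 alone it was positive in 41 and negative in 1, against 23.6% and 28.6%. With only siNT1 as control it was positive in 22 (11.1% of all genes), and with only siNT2 in 21 (11.8%). The largest interactions were CENPA (2.40 ± 0.27), CENPF (2.24 ± 0.23), AURKB (2.00 ± 0.27) and KIF20A (1.80 ± 0.36). CENPF and CENPA fell in DMSO and rose in 4OHT, whereas AURKB and KIF20A fell in DMSO from control levels of 2.99 and 18.01 CPM, against medians of 0.628 and 1.06 in 4OHT siNT. In CPM, KIF20A lost 16.1 in DMSO and 0.641 in 4OHT, and TOP2A lost 41.9 and 7.52. CENPF lost 9.76 CPM in DMSO and gained 8.63 in 4OHT. AURKA (-0.17 ± 0.15), ECT2 (-0.29 ± 0.14) and BUB3 (-0.03 ± 0.06) had no called interaction.

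**Figure D4:**
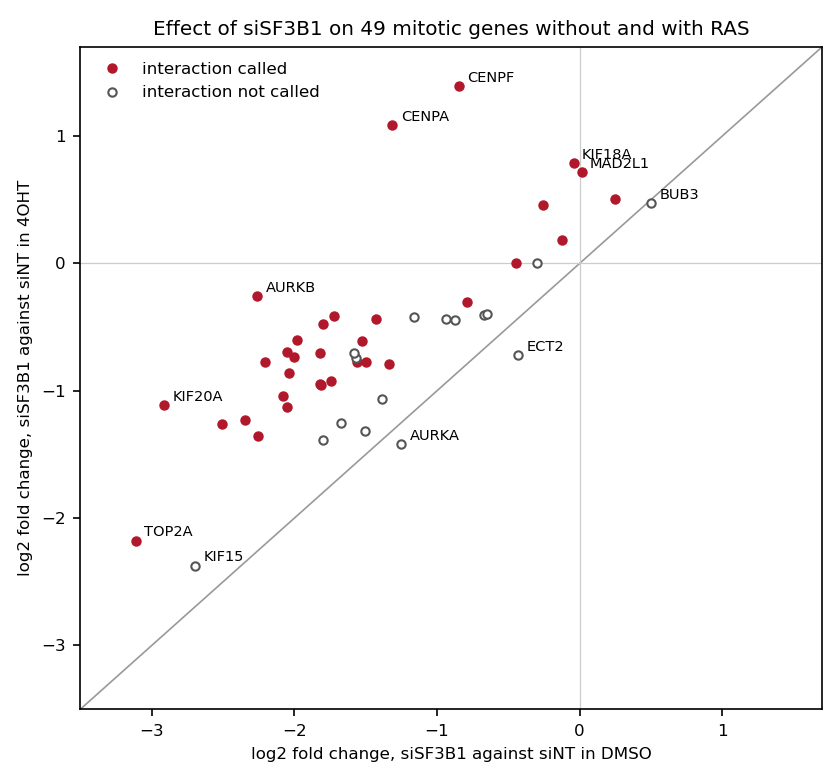
Log2 fold change of siSF3B1 against siNT in DMSO (x axis) and in 4OHT (y axis) for the 49 mitotic genes, with filled points where the interaction was called and the line of equal effects in grey. Of the points, 46 lie above the line, and CENPF and CENPA lie farthest above it.

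After RBM39 knockdown in DMSO few members were called with the siRNAs pooled, and the siRNAs differed. The mean over the module lay between 2.86 and 3.00 with siRBM39-06, below the 3.05 to 3.51 of the siNT libraries, and between 3.33 and 3.41 with siRBM39-08, inside that range. With both siRNAs pooled, 6 members fell and 2 rose, with a median log2 fold change of -0.023, beside 22.2% and 22.8% of all genes. With siRBM39-06 alone 29 members fell and 1 rose, against 31.9% and 33.8% of all genes. With siRBM39-08 alone 21 rose and 4 fell, against 24.2% and 21.9%. In 29 members every siRBM39-06 library was below every siRBM39-08 library, against 18.9% of all genes, and in 0 members the reverse held. KIF20A was at 7.15 to 9.84 CPM with siRBM39-06, at 15.5 to 16.7 with siRBM39-08 and at 16.4 to 21.6 in the controls. CCNB1 was at 18.5 to 20.7 CPM with siRBM39-06, inside the control range, and at 25.4 to 28.8 with siRBM39-08, above it. CENPF was at 11.7 to 20.7 and 28.6 to 29.5 CPM. The controls were not uniform either, since siNT1 was above siNT2 without overlap in 5 members in DMSO (against 5.62% of all genes) and below it in 0 (against 6.53%). With both siRBM39 siRNAs pooled, 4 members rose and 1 fell against siNT2 alone, beside 14.7% and 17.2% of all genes, while 0 rose and 6 fell against siNT1 alone, beside 14.8% and 16.7%.

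A few genes were called in the same direction in DMSO and in 4OHT. ECT2 fell from a median of 26.1 to 14.4 CPM in DMSO (-0.85 ± 0.10, adjusted p = 2.35e-09), without overlap, and from 46.8 to 26.5 in 4OHT (-0.87 ± 0.10, adjusted p = 6.89e-10). KIF20B, a kinesin of late cytokinesis, fell by 0.54 in DMSO and 0.67 in 4OHT on the log2 scale, and ESPL1 by 0.38 and 0.57. SPC24, a subunit of the NDC80 complex and the least counted member, rose from 0.596, 0.862 and 1.31 CPM to 1.25, 1.49 and 2.04 in DMSO (0.77 ± 0.19) and from a median of 0.144 to 0.281 in 4OHT (1.19 ± 0.31). The other calls in DMSO were falls of BUB1 (-0.68 ± 0.20), KIF20A (-0.58 ± 0.19) and FOXM1 (-0.24 ± 0.08) and a rise of KIF23 (0.36 ± 0.12), which had a log2 fold change of -0.03 with siRBM39-06 alone. The other genes described throughout ranged from CDC20 (-0.42 ± 0.19) to CDK1 (0.35 ± 0.17) and were not called.

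In 4OHT, siRBM39 raised 13 members and lowered 5, against 28.1% and 25.9% of all genes, with a median of 0.22 beside 0.026 for all genes. The mean over the module lay between 1.765 and 1.813 with siRBM39-06, inside the 1.663 to 1.838 of the siNT libraries. With siRBM39-08 it lay between 1.866 and 2.059, above them. Directions of the calls with 1 siRNA alone are left out, since shares of all genes are not given for those fits. The controls differed in 4OHT too. Their module mean was 1.804 to 1.838 with siNT1 and 1.663 to 1.714 with siNT2, without overlap. In 11 members every siNT1 library in 4OHT was above every siNT2 library (against 4.89% of all genes), and in 2 below (against 5.66%). After SPC24 the largest rises were KIF4A, a chromokinesin (0.88 ± 0.19), DLGAP5 (0.74 ± 0.23) and CENPF (0.67 ± 0.17). CCNB2 (0.56 ± 0.18), FOXM1 (0.50 ± 0.09), AURKB (0.50 ± 0.19) and CDC25B (0.29 ± 0.08) rose from lower levels than in DMSO, FOXM1 from 3.69, 4.57 and 5.31 to 4.89, 6.39 and 9.17 CPM with overlap. CDC25B was at 39.9 to 44.2 CPM with siRBM39-06, overlapping the 36.5 to 44.2 of siNT, and at 49.1 to 75.6 with siRBM39-08. AURKA fell (-0.35 ± 0.10) and BUB3 fell slightly (-0.18 ± 0.05). MYBL2 (0.53 ± 0.31), MKI67 (0.51 ± 0.23) and TOP2A (-0.37 ± 0.17) were not called. Without replicate 4 of siRBM39-08, 11 members rose and 6 fell, beside 28.5% and 28.9% of all genes. AURKB was then not called (0.35, adjusted p = 0.0891), CDC20 fell (-0.50, adjusted p = 0.0229, against -0.22 with the library, not called) and the rise of CDC25B was 0.17. CENPF rose by 0.77, FOXM1 by 0.41 and MKI67 stood at 0.38, not called. SPC24 was at 0.845 CPM in that library and at 0.171 to 0.430 in the others of its group. Its rise was 0.93 without the library. MYBL2 was at 6.54 CPM in that library and at 0.755 to 1.46 in the other 7, and its log2 fold change without the library was -0.18, so that the positive value of MYBL2 rests on this library. BIRC5 likewise went from 0.47 to 0.14, called in neither fit. The summed level of 6 epithelial markers ran from 4.45 to 43.96 CPM in the 4OHT siRBM39 libraries, against at most 14.2 in the other groups. The library with the highest sum is not identified here, and the part of this in the result was not tested. The interaction of siRBM39 with 4OHT was positive in 3 members, FOXM1 (0.74 ± 0.12), AURKB (0.78 ± 0.24) and ASPM (0.84 ± 0.27), and negative in 0, against 6.18% and 7.98% of all genes. Shares of all genes are not given for the single-siRNA fits of this interaction, so the directions of their calls are not read here. The named genes whose interaction changed sign with 1 siRNA alone are listed further below.

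A further 100 genes of mitosis and its control, 96 of them tested, give the setting of the module. With RAS 63 fell and 21 rose (median -0.67), beside 38.9% and 39.5% of all genes. After siSF3B1, 57 fell and 14 rose in DMSO (-0.39), beside 37.5% and 34.8% of all genes. In 4OHT 40 fell and 27 rose after siSF3B1 (-0.16), beside 38.3% and 36.8%. After siRBM39, 25 fell and 14 rose in DMSO, beside 22.2% and 22.8% of all genes. In 4OHT 20 moved each way after siRBM39, beside 25.9% of all genes falling and 28.1% rising. Of the condensin genes, which compact chromosomes, 6 of 8 fell with RAS and 1 rose. Of the MuvB, DREAM and E2F genes, 8 of 13 rose and 5 fell (median 0.30), led by E2F7, a repressor of E2F targets (3.16), and E2F1 (1.11). CDKN3 and CEP55 had the largest falls with RAS among the 96 (-3.04 and -2.79).

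Splicing of the members could be tested for few events, since the coverage of these genes was low. Of 1531 exon, intron and splice-site events of the 49 genes, 24 were covered in every library at the lowest accepted score, and 6, all in CDC25B, passed all filters among 13801 events tested with limma. One was called, the 123-nt exon HsaEX0014008 after siRBM39 in 4OHT, with an inclusion level (PSI) of 94.5 ± 5.82% (SD, n = 8) against 100% in siNT (-5.53 points, adjusted p = 0.0112). After siSF3B1 in 4OHT the same exon was at 95.3 ± 5.96% (-4.715 points, adjusted p = 0.0152 in limma), short of a call only by the 5-point minimum. Over all events, 0.891% were called with RAS, 19.9% and 23% after siSF3B1 in DMSO and 4OHT, and 5.64% and 6.26% after siRBM39. After siSF3B1 the 244-nt intron HsaINT0031554 was 4.16 points higher in DMSO and 2.31 in 4OHT, under the 5 points required of a call.

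To describe the remaining events, reads were added over the 8 libraries of each group, a rule set after the values had been seen, so that no test applies. With at least 20 reads in every group, 231 events of 17 members could be described, and 11 (8 exons and 3 introns) differed by at least 15 points between a knockdown and its siNT group. This rule was applied to events of the members only. The count therefore has no share of all events beside it and does not set these genes apart from others. Intervals below are 95% Wilson intervals on these corrected, rounded reads and cover counting error only, not the spread between libraries.

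Cyclin B1 has a 59-nt exon, HsaEX0013604, whose length is not a multiple of 3 and whose inclusion was lower after siSF3B1. It was included at 99.1% (96.5 to 99.7, 206 reads) in DMSO siNT and at 70.1% (61.2 to 78.2, 108 reads) in DMSO siSF3B1. Under 4OHT the values were 100% (96.5 to 100) in siNT and 58.6% (48.3 to 69.0) in siSF3B1. Libraries overlapped in DMSO (90.9 to 100% in siNT, 12.5 to 100% after siSF3B1). In 4OHT every siNT library was at 100%, and those of siSF3B1 ran from 16.7 to 76.9%. After siRBM39 the pooled inclusion of this exon stood at 92.4% and 95.2%. KIF23 (MKLP1), a motor of centralspindlin, has a 42-nt exon, HsaEX0034535, that was included at 53.7% (41.1 to 64.8) in DMSO siNT and 19.6% (11.6 to 32.4) after siSF3B1, and at 31.1% and 2.85% in 4OHT. Its siNT and siSF3B1 libraries overlapped in DMSO (25 to 75% and 0 to 44.4%) and in 4OHT (0 to 66.7% and 0 to 11.1%). After siRBM39 the 42-nt exon was at 31.98% (24.4 to 41.6) in DMSO and 10.2% (3.05 to 22.96) in 4OHT, with intervals that overlap those of siNT. A 137-nt exon of the same gene, HsaEX0034534, was at 100% in both siNT groups (95.8 to 100 in DMSO, 90.8 to 100 in 4OHT). It was at 74.3% (61.7 to 84.2) after siSF3B1 in DMSO and 91.1% (78.2 to 97.1) in 4OHT, where the interval overlaps that of siNT, and at 89.5% (82.4 to 93.8) after siRBM39 in DMSO and 79.5% (65.5 to 88.9) in 4OHT. The 93-nt exon HsaEX0021536 of ECT2 was at 42.6% and 41.8% in the siNT groups and at 27.6% and 18.1% after siSF3B1, with intervals that overlap in DMSO (30.6 to 55.1 and 14.6 to 43.1). After siRBM39 this exon was at 27.6% (15.6 to 45.4) in DMSO and 22.5% (12.5 to 36.3) in 4OHT. Both intervals overlap those of siNT (33.2 to 51.2 in 4OHT).

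Other exons had higher values after a knockdown. The 12-nt exon HsaEX0031646 of INCENP had the largest difference of the 11 events, on only 20 to 29 reads per group. Its inclusion in 4OHT was 10.4% (4.17 to 29.96) in siNT, 49.1% (31.4 to 65.6) after siSF3B1 and 71.2% (48.1 to 85.5) after siRBM39, and in DMSO it was 35.5% (20.3 to 55.5), 15.7% (6.68 to 35.9) and 58.8% (36.6 to 75.5), with intervals that overlap that of siNT. Single libraries of the 4OHT groups ran from 0 to 60.3%, 0 to 82.1% and 0 to 100%. A 312-nt exon of KIF23, HsaEX0034539, was at 48.6% (33.4 to 62.3) in 4OHT siNT and 72.8% (59.0 to 83.4) after siRBM39, with overlapping intervals. The other exons were HsaEX0034536 of KIF23 and HsaEX6077034 of CDC25B, both at 100% in siNT and at 84.2% (68.3 to 93.1) and 84.4% (72.95 to 92.2) after siSF3B1 in 4OHT.

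The CCNB1 and KIF23 exons are printed with the 40 bases before and 10 after, since the branch point and polypyrimidine tract that the U2 machinery reads lie in the bases before an exon. Capitals mark the exon, and lower case the introns. Both were found in the GENCODE annotation of GRCh37 by gene and by the lengths of the exon and of its flanking introns, at chr5:68473078-68473186 and chr15:69717581-69717672 (both plus strand, coding).
CCNB1: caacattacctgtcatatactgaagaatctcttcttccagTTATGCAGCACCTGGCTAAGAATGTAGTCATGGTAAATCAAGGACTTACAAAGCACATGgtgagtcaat
KIF23: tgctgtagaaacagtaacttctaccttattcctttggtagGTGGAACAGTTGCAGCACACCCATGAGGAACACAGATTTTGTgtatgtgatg

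The introns differed after 1 knockdown or the other. Retention of a 1824-nt intron of CDC25B (HsaINT0031552) was 8.54% (4.67 to 14.9, 118 reads) in DMSO siNT and 41.8% (34.1 to 49.9) in DMSO siSF3B1, and 12.5% and 50.01% in 4OHT, while the siRBM39 groups stood at 8.28% and 8.85%. Every siSF3B1 library in DMSO (33.3 to 52.0%) was above every siNT library (0 to 18.5%), whereas in 4OHT the libraries overlapped (32.7 to 70.8% and 0 to 33.3%), and 2 of 48 libraries failed the balance test between the junctions of this intron. A 991-nt intron of BUB3 (HsaINT0019253) differed after siRBM39 instead, at 16.3% (13.7 to 19.5, 635 reads) and 16.0% in the siNT groups, 12.2% and 12.1% after siSF3B1, and 42.4% (38.4 to 46.6, 563 reads) and 42.5% (38.1 to 47.2) after siRBM39. Its siRBM39 libraries (27.9 to 54.2% in DMSO, 29.3 to 52.8% in 4OHT) did not overlap the siNT libraries (7.44 to 21.9% and 10.1 to 21.8%), but 8 of 48 libraries failed the balance test, which kept it out of the test above. BUB3 counts differed little after siRBM39, with -0.08 ± 0.05 in DMSO (not called) and -0.18 ± 0.05 in 4OHT. The 1701-nt intron HsaINT0030337 of CCNB1 was retained at 9.94% in DMSO siNT and 23.1% after siRBM39, and at 10.4% and 43.4% in 4OHT, on 24 to 72 reads per group. Its intervals overlap in DMSO (4.63 to 22.6 and 15.3 to 34.6) and not in 4OHT (2.32 to 25.9 and 27.4 to 60.8). Single libraries in 4OHT ran from 0 to 100% in both siNT and siRBM39.

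**Figure D5:**
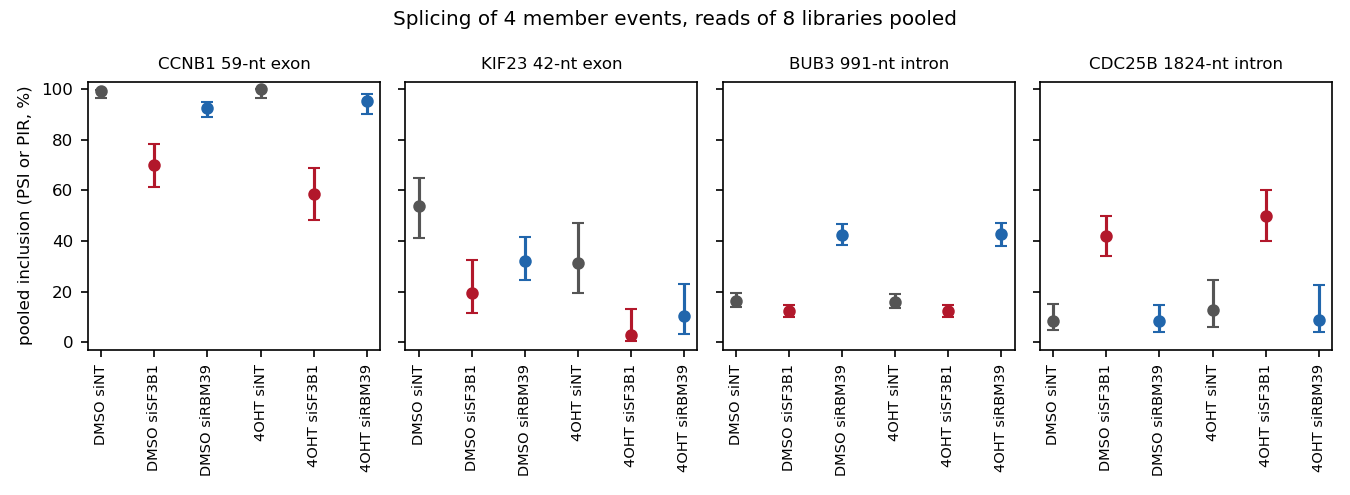
Inclusion in percent (y axis) of 2 exons and 2 introns of member genes in the 6 groups (x axis), from the reads of 8 libraries added up, with 95% Wilson intervals. The CCNB1 exon and the CDC25B intron differ from siNT after siSF3B1, the BUB3 intron after siRBM39, and the KIF23 exon has lower values after both.

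KIF4A has a near-identical intronless copy, KIF4B, which held 29 counts in all libraries together, so reads of the pair may be divided between them.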

How the data were processed

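RNA-seq libraries of IMR90 ER:RAS cells (48 libraries, 6 groups of 8) were quantified by the authors with vast-tools against the human VAST-DB (hg19 by their methods) after merging lanes. The authors deposited raw counts per gene, and cRPKM, an RPKM corrected for mappability, in the same table. The splicing table, as deposited, holds percent spliced in (PSI) per event with a text field of coverage scores and corrected reads. A table of normalised CPM, a scaled signal deposited by the authors after edgeR scaling and a filter on low counts, served as an alternative. The event coordinates were not used, because they did not match the build in the file's name.

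Genes with at least 1000 counts in total (12535 of 19847 listed) were fitted in R 4.3.3 with edgeR 4.0.16 (TMM scaling, glmQLFit, glmQLFTest, 6 group means over all 48 libraries), with Benjamini-Hochberg adjustment over all genes and calls at an adjusted p under 0.05. Log2 fold changes are given with their standard error. PSI values were fitted with limma 3.58.1 on the logit scale, over 13801 events covered in every library, with PSI spanning 5 points or more and, in the case of introns, with balanced junction reads (p not under 0.05). A splicing call needed an adjusted p under 0.05 and 5 points. The authors used limma-voom and 10000 counts, which were tried as alternatives, as were DESeq2 1.42.0, other groupings of siRNAs and controls, and leaving out replicates. Both scripts were tested on simulated data. No library pair was a duplicate (lowest chi-square per degree of freedom 1.89 over 72 pairs within an siRNA).

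The 49 members and all lists were chosen with earlier results of these data known. In each comparison the 3 largest rises and falls among called members were named, and 18 genes (CDK1, CCNB1, CCNB2, CCNA2, PLK1, AURKA, AURKB, BUB1, CDC20, CENPF, KIF20A, TOP2A, MKI67, FOXM1, MYBL2, BIRC5, BUB3 and CDC25B) were described whatever they did. The remaining named genes were chosen after their values were seen. Epithelial, endothelial and immune markers summed to at most 43.96, 12.3 and 113 CPM in any library. The siRNA of each library was taken from its title, because another label of 4 siNT2 libraries in 4OHT names siNT1. Promoters are from RefSeq (GRCh38.p14) and exons from the GENCODE annotation of GRCh37. The strandedness of the counting is not given in the sources used here.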

Additional observations from a re-analysis of the deposited data

Results flagged for a closer look

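A library was set apart when its gap to the nearest of the other 7, relative to the range of its group, exceeded Dixon's 95% critical value. Of 114 sets of 8 values checked, 10 had such a library, and chance alone gives about 1 in 20. Replicate 4 of siRBM39-08 in 4OHT accounted for 9 of the 10. It was highest for CCNB1 (15.03 CPM, others 11.29 to 12.9), AURKB (1.534, others 0.536 to 0.953), CDC20 (6.418, others 2.005 to 2.557), MKI67 (3.444, others 1.431 to 2.167), MYBL2 (6.543, others 0.755 to 1.455), BIRC5 (6.512, others 1.383 to 2.504) and CDC25B (75.61, others 39.88 to 52.07). It was also highest for the mean log2(CPM + 0.5) over the 49 genes (2.059, others 1.765 to 1.876). For CENPF it was the lowest library at 3.913 CPM, below 7.671 to 10.89 in the others. The remaining case was PLK1 at 1.579 CPM in replicate 3 of siSF3B1-16 in 4OHT (others 0.961 to 1.227).

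The effect of siSF3B1 differed between 4OHT and DMSO by an interaction test in edgeR for 13 named genes, each time with the higher log2 fold change in 4OHT. The differences were 2.398 for CENPA, a gene named for its size, 2.236 for CENPF, 2.004 for AURKB, 1.801 for KIF20A, 1.379 for MYBL2, 1.264 for MKI67 and 1.121 for CDC20. For CDK1 the difference was 0.9906, for TOP2A 0.9371, for BUB1 0.8723, for CCNA2 0.8594, for CCNB1 0.4894 and for CDC25B 0.3056. The effect of siRBM39 differed in the same sense for ASPM (0.8363), AURKB (0.775) and FOXM1 (0.7374).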

How the results depend on the processing

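Of 2433 recomputed log2 fold changes of named genes, 2214 kept their direction and side of the threshold, 105 passed it only under the alternative, 77 no longer passed it and 37 changed sign, 35 of them without a call in either fit. With siRBM39-06 alone the changed values were -0.079 for CCNB1, -0.14 for CCNB2, -0.33 for CENPF (called), -0.0026 for CDC25B and -0.030 for KIF23 (called before) in DMSO, -0.0012 for CCNB1, -0.065 for PLK1, -0.095 for MYBL2 and -0.081 for BIRC5 in 4OHT, and 0.078 for CCNB1, 0.013 for AURKA, -0.038 for CDC20 and 0.27 for TOP2A in the interaction. With siRBM39-08 alone they were 0.067 for PLK1, 0.069 for AURKA, 0.018 for TOP2A and 0.15 for BIRC5 in DMSO, 0.091 for CDC20 in 4OHT, and -0.16 for CDK1 and -0.17 for CCNA2 in the interaction. Against siNT1 alone CENPF after siRBM39 in DMSO was at -0.082 and the siRBM39 interaction of CDK1 at -0.012, against siNT2 alone PLK1 after siRBM39 in DMSO was at 0.015, and with at least 10000 counts the siSF3B1 interaction of BUB3 was at 0.0064. With at least 10000 counts only 22 members could be tested, and 22, 20, 19, 4 and 8 were called for RAS, siSF3B1 in DMSO and 4OHT, and siRBM39 in DMSO and 4OHT, with 13 and 1 for the interactions of siSF3B1 and siRBM39. The 8 members called for siRBM39 in DMSO became 15 with limma-voom, 15 with only the groups compared, 25 with 1 mean per siRNA, 30 with siRBM39-06 alone, 25 with siRBM39-08 alone and 5 against siNT2 alone. The 18 called for siRBM39 in 4OHT became 29 with 1 mean per siRNA and 30 with siRBM39-08 alone, and 12 against siNT1 alone. The 33 interactions of siSF3B1 became 19 with siSF3B1-16 alone, 22 against siNT1 alone and 21 against siNT2 alone. The 3 interactions of siRBM39 became 6 with DESeq2, 7 with only the groups compared, 13 with 1 mean per siRNA, 16 with siRBM39-06 alone, 13 with siRBM39-08 alone, 1 against siNT1 alone and 1 against siNT2 alone. The cause was not tested, except that fewer genes or samples enter some of these fits.

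Leaving out replicates also changed the sign of AURKB after siSF3B1 in 4OHT (-0.49 to 0.0044), of PLK1 (-0.13 to 0.24) and MYBL2 (-0.19 to 0.84) after siRBM39 in 4OHT, of the siSF3B1 interaction of BUB3 (-0.038 to 0.0019) and of the siRBM39 interactions of CDK1 (-0.051 to 0.12), CCNB1 (-0.14 to 0.0042), PLK1 (-0.057 to 0.30), CDC20 (-0.081 to 0.46) and TOP2A (-0.14 to 0.019). Leaving out 1 replicate number at a time gave 47 to 48 calls for RAS, 44 to 46 and 35 to 38 for siSF3B1 in DMSO and 4OHT, 13 to 18 for siRBM39 in 4OHT, and 22 to 27 for the interaction of siSF3B1. Without replicates, or without replicate 4 of siRBM39-08 in 4OHT, the calls ran from 5 to 9 for siRBM39 in DMSO and from 1 to 4 for its interaction. For splicing, 1 event was called for each siSF3B1 comparison when coverage was required only in the libraries compared, and the 1 event of siRBM39 in 4OHT became 0 with a 10-point minimum, with a score of at least LOW or with no minimum PSI range. Leaving out replicates gave 0 to 1 events for siSF3B1 in DMSO, siSF3B1 in 4OHT and siRBM39 in 4OHT. The replicate block gave 48, 45, 39, 8, 18, 33 and 3 members and changed no call count. Deviations of libraries with equal numbers had a median correlation of 0.00978 over 264 pairs (from -0.905 to 0.810), and 84 pairs exceeded 0.1. A median cannot decide whether some of these libraries are paired, because positive and negative correlations cancel in it. Low counts limit SPC24, CDC25C, KIF15, NEK2, NUF2, CENPA and NDC80 in 4OHT, with 27, 38, 42, 60, 64, 84 and 91 counts over the 8 libraries of their lowest group, and nearly all splicing events.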
